A study of Salmo salar with 30 samples.

Results

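The comparison described here sets salmon fed soybean meal with package 1 (P1) against salmon fed soybean meal without a package. The tissue was the distal intestine, the last stretch of the gut. The 10 arrays were chosen by their titles, 5 fish of each diet, out of 30 arrays and 6 diets in the study. P1 contained butyrate at 0.01% and arginine at 1.5%. All 10 fish received soybean meal, at a level not given in the sources used here. The fish were Atlantic salmon of 177 g at the start, kept for 67 days at 11.2 °C, and each array holds the Cy3-labelled RNA of 1 fish. Besides soybean meal + P1 and soybean meal, the study had soybean meal + P2 (butyrate at 0.01%, β-glucan at 0.1% and nucleotides at 0.05%), corn gluten + P2, corn gluten, and a control feed rich in fish meal, each with 5 fish. The study held its fish in 18 tanks, and the tank of each fish is not labelled. The p-values treat fish as independent, although 30 fish from 18 tanks must include fish that shared a tank. No arm received butyrate alone or arginine alone, so the effects of both ingredients cannot be told apart.

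Soybean meal, a plant-based protein feed, can cause an enteritis in Atlantic salmon that is seated in the distal intestine. Butyrate is a short-chain fatty acid made by gut bacteria, which in mammals fuels the cells that line the colon and inhibits histone deacetylases. Arginine is the amino acid from which nitric oxide, ornithine and polyamines are made. The question the comparison addresses is what a feed additive of both changes in a gut that is exposed to soybean meal.

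The array carries 14841 probes besides its controls, and 13577 of them were kept because at least 5 of the 30 arrays showed them well above background. No column gives a gene name for a probe, and 0 of 14841 identifiers matched the reference table of salmon genes, so probes are given by identifier, no gene list could be examined, and the labelled tissue was not checked against marker genes. Levels are the log2 of the processed signal minus the 75th percentile of the array, so 0 marks the 75th percentile and −1 lies 2-fold below it. Between 12535 and 13208 probes were well above background per fish in the 2 diets, and their 75th percentiles lay between 596 and 948 signal units. The count of probes well above background averaged 12886 ± 209 in soybean meal + P1 fish and 12981 ± 207 in soybean meal fish (SD, n = 5 each). The diets differed by −95.4 probes, less than the SD of either (two-sided exact permutation test, p = 0.492). Across probes, pairs of fish correlated at 0.971 to 0.988 within soybean meal + P1 and at 0.967 to 0.980 within soybean meal. Between the diets they correlated at 0.959 to 0.983. The median between the diets, 0.9758, was no lower than the median within either diet. The lowest pairs between the diets were those of soybean meal fish 1 with the P1 fish, at 0.9594 to 0.9635. Depth in the sequencing sense does not apply, and precision is limited by the number of arrays.

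Few probes passed the adjusted threshold, which at 5 fish per diet does not show that the other probes were alike. Of the 13576 probes tested, 3 passed an adjusted p of 0.05 in limma (0.0221% of those tested), 2 higher (0.0147%) and 1 lower (0.00737%). The fit used all 30 arrays, so each SE, interval and adjusted p rests on a spread per probe shared by the 6 diets. Ssa#DW181704 and Ssa#S35523722 rose with P1, by less than 2-fold, and Ssa#S31999895 fell about 6.27-fold. The fourth smallest adjusted p, 0.0939, belonged to Ssa#GRASP221220567, which was lower with P1 and did not pass. No other probe had an adjusted p below 0.1, and 92 lay below 0.2. Without adjustment, 1434 probes (10.6%) had a limma p below 0.05, of which 810 (5.97%) were higher and 624 (4.6%) lower with P1. Where no probe differs, a share of 0.05 is the level to compare with for both directions together, and each direction alone has a lower level. The probes are not independent of each other, so the share can depart from that level even where none differs. The 2 diets did not overlap at 194 of the 13431 probes with a value in every fish (1.44%), 93 higher (0.692%) and 101 lower (0.752%) with P1.

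**Figure D1:**
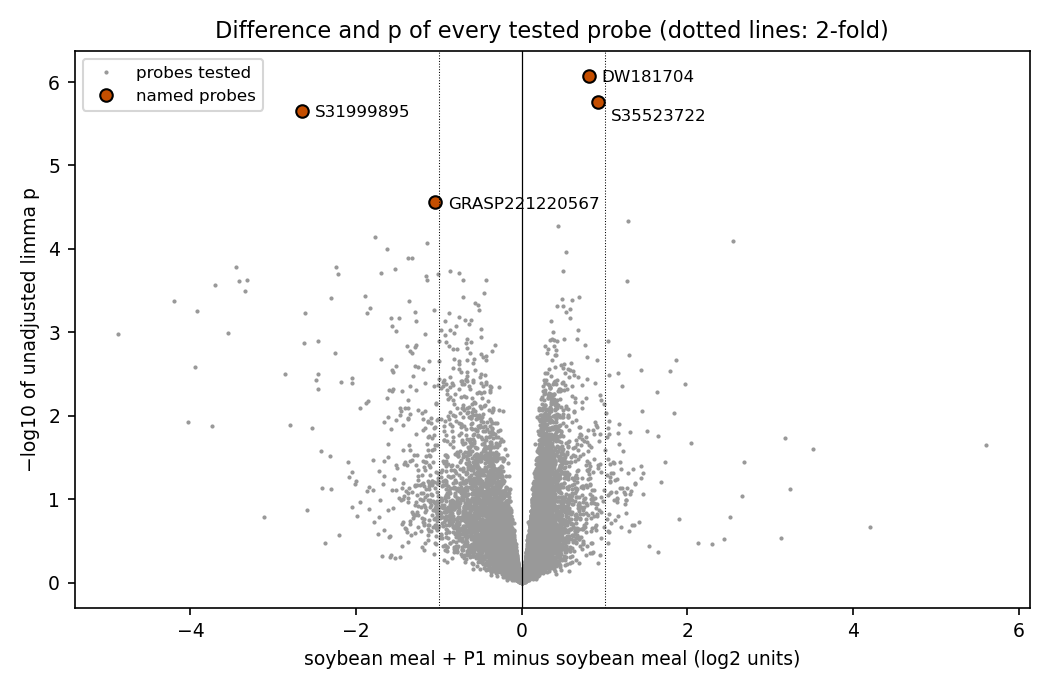
Each point is 1 of the 13576 tested probes, placed by its difference (soybean meal + P1 minus soybean meal, in log2 units) and by the −log10 of its unadjusted limma p. The 4 named probes stand above the rest, and more probes lie beyond the dotted 2-fold line on the left (327, lower with P1) than on the right (100, higher with P1).

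Ssa#DW181704 had levels of −2.66, −2.75, −2.52, −2.79 and −2.33 in soybean meal + P1 fish 1 to 5, against −3.58, −3.38, −3.34, −3.16 and −3.67 in soybean meal fish 1 to 5. Every fish with P1 lay above every fish without it. The mean was 1.76-fold higher with P1, a difference of 0.82 ± 0.13 log2 units (SE, adjusted p = 0.0101), with a 95% interval of 0.55 to 1.08. On the linear scale its processed signal ran from 94.6 to 156.6 units with P1 and from 58.5 to 86.2 without it.

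Ssa#S35523722 had levels of −3.83, −3.75, −3.83, −3.83 and −3.88 in soybean meal + P1 fish 1 to 5, against −4.68, −4.87, −4.47, −4.40 and −5.32 in soybean meal fish 1 to 5. The diets did not overlap, and the fish with P1 were close together, with an SD of 0.05 against 0.37 without P1. The mean was 1.90-fold higher with P1, by 0.92 ± 0.15 log2 units (SE, adjusted p = 0.0101), with a 95% interval of 0.61 to 1.24. This was a dim probe, with signals of 42.0 to 70.4 units with P1 and 18.7 to 38.9 without. With the normexp background correction, which adds 50 units to each signal, the differences were 0.34 for Ssa#DW181704 and 0.20 for Ssa#S35523722, and neither passed (adjusted p = 0.643 and 0.753). Both calls were also lost without soybean meal fish 5 (adjusted p = 0.0501 each), the fish with the lowest level of both probes. In the limma fit to the 10 arrays alone neither probe passed (adjusted p = 0.310 each).

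Ssa#S31999895 had levels of −2.62, −2.96, −5.68, −5.39 and −3.10 in soybean meal + P1 fish 1 to 5, against −0.81, −1.31, −2.24, −1.10 and −1.05 in soybean meal fish 1 to 5. The diets did not overlap, and within the P1 diet fish 3 and 4 were far below fish 1, 2 and 5. Between the means lay −2.65 ± 0.44 log2 units (SE, adjusted p = 0.0101), with a 95% interval of −3.55 to −1.75. This SE and interval use the shared spread, while the SD was 1.46 in soybean meal + P1 and 0.18 to 0.58 in the other 5 diets. In the limma fit to the 10 arrays alone the probe did not pass (adjusted p = 0.558). Its signals ran from 16.8 to 122.2 units with P1 and from 182 to 468 without, and it was well above background in all 10 fish. Fish 3 and 4 shared a slide and stand next to each other in the submitters' numbering of the fish. Whether they shared a tank is not labelled, and the part of slide or tank in their low levels was not tested. Without P1 fish 3 the difference was −2.22 and without P1 fish 4 −2.29, and both passed (adjusted p = 0.0287 and 0.0434). Without soybean meal fish 1 (−2.53) or fish 5 (−2.59) it did not pass (adjusted p = 0.0622 and 0.0508).

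Ssa#GRASP221220567 had levels of −3.74, −3.46, −3.27, −4.01 and −3.33 in soybean meal + P1 fish 1 to 5, against −2.21, −2.63, −2.63, −3.29 and −1.83 in soybean meal fish 1 to 5. The highest fish with P1, fish 3, and the lowest without it, fish 4, overlapped narrowly. Between the means lay −1.04 ± 0.21 log2 units (SE, adjusted p = 0.0939), with a 95% interval of −1.47 to −0.62. Without soybean meal fish 4 the difference was −1.24 and passed (adjusted p = 0.00269), and without soybean meal fish 2 it was −1.07 and passed (adjusted p = 0.0479).

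**Figure D2:**
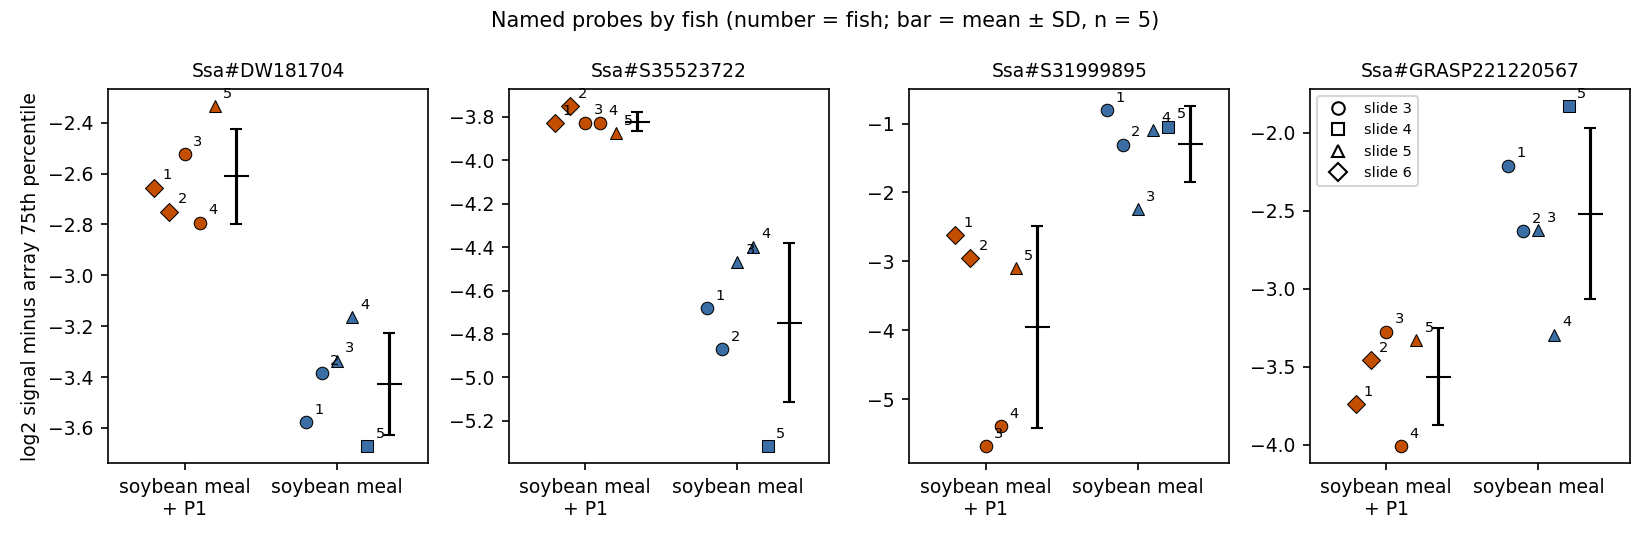
Levels of the 4 named probes (log2 signal minus the array's 75th percentile) in the 5 soybean meal + P1 fish, left, and the 5 soybean meal fish, right, with symbols for the slide, the fish number beside each point, and the mean ± SD at the side. The diets are apart at the first 3 probes and touch at the fourth, and P1 fish 3 and 4 of slide 3 hold the lowest levels of Ssa#S31999895.

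The same 4 probes were read in the other diets of the fit. They had been picked by P1 against soybean meal, which favours probes with extreme levels in those fish. Differences of P1 or soybean meal fish from other diets at these probes are therefore no independent test. Ssa#DW181704 averaged −2.61 ± 0.19 in soybean meal + P1, −2.68 ± 0.20 in soybean meal + P2, −2.78 ± 0.14 in corn gluten + P2, −2.70 ± 0.27 in corn gluten, −3.43 ± 0.20 in soybean meal and −2.99 ± 0.16 in control (SD, n = 5 each). Ssa#S35523722 averaged −3.82 ± 0.05, −3.78 ± 0.21, −3.97 ± 0.10, −3.99 ± 0.33, −4.75 ± 0.37 and −4.31 ± 0.20 in the same order. For these 2 probes soybean meal without a package had the lowest mean of the 6 diets. Both were lower in soybean meal than in control, by −0.44 ± 0.13 and −0.44 ± 0.15 log2 units (SE, adjusted p = 0.0101 and 0.0294, where 30.3% of probes passed). In soybean meal + P1 both were higher than in control, by 0.38 ± 0.13 and 0.49 ± 0.15 (SE, adjusted p = 0.0267 and 0.0157, where 29.9% of probes passed). These comparisons share fish with each other and with P1 against soybean meal.

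Ssa#S31999895 followed another order of diets. It averaged −3.95 ± 1.46 in soybean meal + P1, −1.82 ± 0.58 in soybean meal + P2, −0.71 ± 0.18 in corn gluten + P2, −0.73 ± 0.21 in corn gluten, −1.30 ± 0.55 in soybean meal and −1.07 ± 0.50 in control (SD, n = 5 each). The fall was large against control as well, at −2.88 ± 0.44 log2 units (SE, adjusted p = 2.45e-05), while soybean meal itself differed from control by −0.23 ± 0.44 (SE, adjusted p = 0.727). The highest level in a fish with P1, −2.62, lay below the lowest in any fish of the other 5 diets, −2.41. Ssa#GRASP221220567 averaged −3.56 ± 0.31 in soybean meal + P1, −3.0 ± 0.36 in soybean meal + P2, −4.11 ± 0.11 in corn gluten + P2, −4.36 ± 0.26 in corn gluten, −2.52 ± 0.55 in soybean meal and −4.29 ± 0.24 in control. Soybean meal raised it over control by 1.77 ± 0.21 log2 units (SE, adjusted p = 1.14e-06), and in soybean meal + P1 it was 0.73 ± 0.21 above control (SE, adjusted p = 0.00858).

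P1 and P2 both contain butyrate and differ in their other ingredients, arginine in P1 and β-glucan with nucleotides in P2. Set against soybean meal, P2 fish had higher levels of Ssa#DW181704 by 0.74 ± 0.13 log2 units and of Ssa#S35523722 by 0.97 ± 0.15 (SE, adjusted p = 0.00959 and 0.00495, where 1.24% of probes passed). The P1 and P2 comparisons share the soybean meal fish. Since the probes were picked partly by the levels of those fish, P2 against soybean meal is no independent test here. Compared directly, the packages differed by 0.07 ± 0.13 log2 units at Ssa#DW181704 (SE, adjusted p = 0.794) and by −0.05 ± 0.15 at Ssa#S35523722 (SE, adjusted p = 0.896), in each case P1 minus P2. At Ssa#S31999895 P1 fish were lower than P2 fish by −2.13 ± 0.44 (SE, adjusted p = 0.0434, where 0.192% of probes passed). At Ssa#GRASP221220567 the difference was −0.56 ± 0.21 and did not pass (SE, adjusted p = 0.174).

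Most probes differed little between the diets. The median size of the difference was 0.17 log2 units with P1 against soybean meal, beside 0.22 for P2 against soybean meal and 0.32 for soybean meal against control. The median SE of a probe was 0.19 log2 units, and the median 95% interval reached 0.38 log2 units to each side, or 1.31-fold. For 10534 probes (77.6%) the whole interval lay within a 2-fold difference either way, and for 7062 (52.0%) within 1.5-fold. For the remaining probes the interval reached beyond 2-fold in at least 1 direction. The whole distribution leaned slightly to higher levels with P1, with 7542 probes above 0 (55.6%), 6034 below and a median of 0.03. The place of 0 depends on how the arrays are scaled. The mean level over all tested probes was lower with P1, at −2.17 against −2.14 in soybean meal.

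The large differences leaned the other way. Fitted differences of more than 2-fold were found at 427 probes (3.15%), 327 lower and 100 higher with P1. More than 4-fold differences were found at 42 lower and 14 higher probes. Of the 427 probes 1 passed, Ssa#S31999895. The probes beyond 2-fold varied more between fish, with a median SE of 0.66 log2 units in each direction against 0.19 over all probes. Of the 327 lower probes 183 (56.0%) were well above background in all 10 fish, as were 40 (40%) of the 100 higher ones, beside 88.0% of all tested probes. The lower counts exceeded the higher ones in each setting tried, by the smallest ratio with slide as a block, at 291 and 142. They were 107 and 17 with the normexp background correction, 260 and 39 in the authors' value table, and 284 and 111 after quantile normalization. Without soybean meal fish 2 the lower count was 497.

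Single fish held many of the extremes. Among the 327 lower probes, soybean meal fish 1 had the highest level of its diet at 150 (45.9%) and soybean meal fish 5 at 96 (29.4%), while fish 3 had it at 12. On the P1 side fish 2 had the lowest level at 107 of the 327 (32.7%) and fish 4 at 79 (24.2%). Measured against the soybean meal mean, the median of the 327 probes was −1.09, −1.78, −1.36, −1.63 and −1.16 log2 units in P1 fish 1 to 5, so that all 5 fish lay on the lower side. Without soybean meal fish 1, 242 probes were more than 2-fold lower. These probes were picked by the same difference, so their direction is no test.

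The number of probes called depended on which fish were included. Leaving out soybean meal fish 1 gave 2 calls. With single fish left out, the probes at an unadjusted limma p below 0.05 ran from 884 without that fish to 1938 without soybean meal fish 2. With all fish they were 1434. Leaving out soybean meal fish 2 gave 18 calls, 14 of them lower with P1. Leaving out fish 3 of that diet gave 6 calls, 2 of them lower, and leaving out fish 4 gave 27, of which 24 were lower. The count was 0 without soybean meal fish 5, where 1145 probes had an unadjusted p below 0.05, and 5 without soybean meal + P1 fish 5. In a fit to the 10 arrays alone the count was 0, and 1064 probes had an unadjusted p below 0.05. The authors' value table gave 1 call, Ssa#S31999895.

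**Figure D3:**
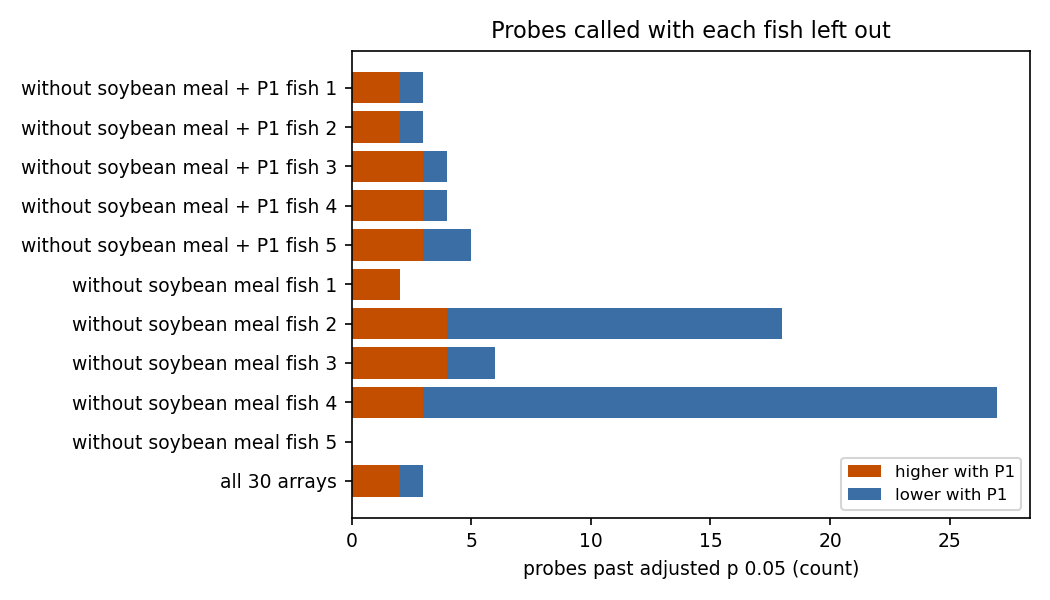
Number of probes past an adjusted p of 0.05 in soybean meal + P1 minus soybean meal, with each fish left out in turn and with all 30 arrays (bottom bar), split into probes higher and lower with P1. Leaving out a soybean meal fish moved the count between 0 and 27, and leaving out a P1 fish between 3 and 5.

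The 10 arrays lay on 4 of the 6 slides, and 2 slides held both diets. Slide 3 carried P1 fish 3 and 4 with soybean meal fish 1 and 2, and slide 5 carried P1 fish 5 with soybean meal fish 3 and 4. P1 fish 1 and 2 (slide 6) and soybean meal fish 5 (slide 4) shared no slide with the other diet. Within the slides Ssa#DW181704 was higher with P1 by 0.82 and 0.92 log2 units (slide 3 and slide 5), and Ssa#S35523722 by 0.95 and 0.56. Ssa#S31999895 was lower with P1 by −4.48 and −1.43, and Ssa#GRASP221220567 by −1.22 and −0.37. All 4 probes kept their direction on both slides. They had been picked with these fish included. In the limma fit with slide as a block 4 probes passed, 3 higher and 1 lower with P1. Ssa#GRASP221220567 was not among them (adjusted p = 0.0908).

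No fish stands on both slides, so the within-slide differences can be set side by side over all probes. They correlated at 0.250 across 13509 probes (Spearman 0.167), and 55.8% of the probes had the same sign on both slides. Restricted to the 11881 of these probes that were well above background in all 10 fish, the correlation was 0.334 and the share of like sign 55.9%. More than 2-fold differences on both slides were found at 273 probes, of which 165 were lower with P1 on both, 58 higher on both, and 50 opposite. Of these, 125 of the 165, 29 of the 58 and 17 of the 50 were well above background in all 10 fish. Slide 3 had 834 probes beyond 2-fold (6.14% of those tested), 501 of them lower with P1. Slide 5 had 902 (6.64%), 502 of them lower. Both counts include the 273 probes beyond 2-fold on both slides. The probes are not independent of each other, and both slides share the array design and the choice of diets, so these are descriptions of 7 fish.

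**Figure D4:**
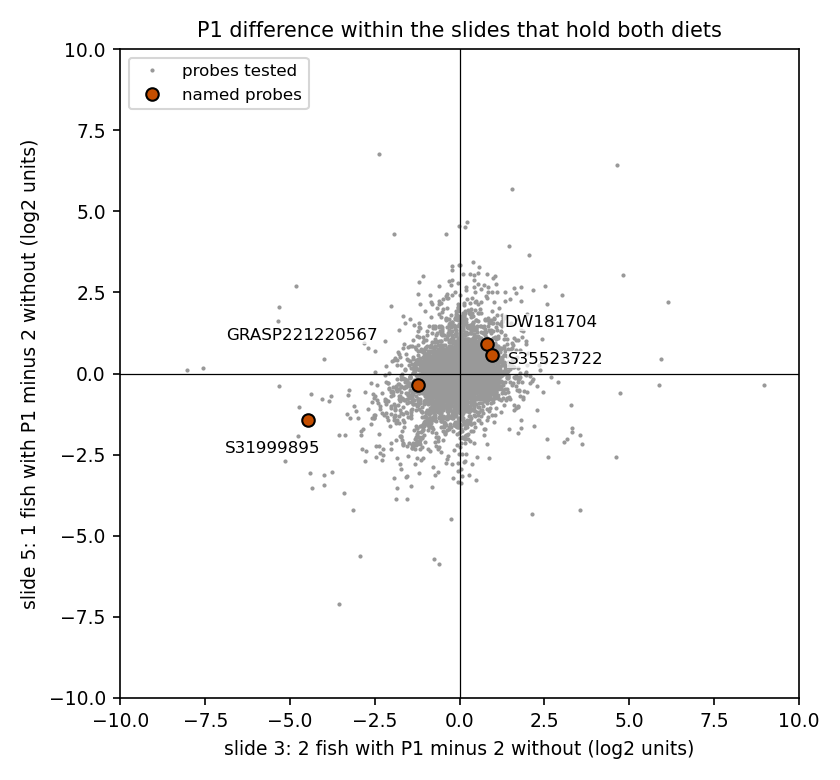
Each point is a tested probe, placed by its difference (soybean meal + P1 minus soybean meal, log2 units) on slide 3 (2 fish each) and on slide 5 (1 fish with P1, 2 without). The cloud is centred near 0 with a tail towards the lower left, where the 165 probes more than 2-fold lower on both slides lie, and the named Ssa#S31999895 lies within that tail.

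A further question is how P1 fish and soybean meal fish compare at probes that set a soybean meal diet apart from control. These probes were chosen by the difference between soybean meal + P2 and control fish, which stand on neither side of P1 against soybean meal. The fish are not fully apart, since the spread per probe was shared by all 6 diets. Probes that vary little between P1 or soybean meal fish therefore pass more easily. The higher list given below held 1259 probes without soybean meal fish 1 and 1155 without P1 fish 3. The lists therefore combine soybean meal with P2, which contains butyrate as P1 does, and their effects cannot be told apart in them. Between soybean meal + P2 and control 2319 probes passed (17.1% of those tested), 1222 higher (9.0%) and 1097 lower (8.08%) with soybean meal + P2. Of the 1222 higher probes, 815 (66.7%) were higher with P1 than with soybean meal alone and 407 were lower, with a median difference of 0.08 log2 units. Of the 1097 lower probes, 674 (61.4%) were higher and 423 lower with P1, with a median of 0.06. Over all tested probes 55.6% were higher and the median was 0.03. Lists chosen instead from soybean meal + P2 minus corn gluten + P2, where 18.9% of probes passed, had medians of 0.11 (1206 higher probes) and −0.05 (1357 lower probes). Of the 3 called probes, Ssa#S35523722 stood in the higher list, the other two in neither. That probe was lower in soybean meal than in control, as given above. At an unadjusted p below 0.05, 7.69% of the higher list were higher with P1 and 3.19% lower, and 7.93% of the lower list were higher and 1.73% lower, beside 5.97% and 4.6% of all tested probes.

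Averaged over each list, the fish of both diets covered nearly the same range. Over the 1222 higher probes the mean level was 0.63, 0.72, 0.52, 0.36 and 0.63 in soybean meal + P1 fish 1 to 5, against 0.47, 0.61, 0.69, 0.42 and 0.55 in soybean meal fish 1 to 5. Over the 1097 lower probes it was −1.62, −1.78, −1.59, −1.18 and −1.58 in soybean meal + P1 fish, against −1.68, −1.64, −1.78, −1.39 and −1.49 in soybean meal fish. The diets overlapped in both lists, and their means differed by less than the SD of either diet. The gap between the higher and the lower list averaged 2.12 ± 0.35 log2 units in soybean meal + P1 fish and 2.14 ± 0.25 in soybean meal fish (SD, n = 5 each). It was smallest in P1 fish 4, at 1.54, and largest in P1 fish 2, at 2.50. On slide 3 the gap was 1.82 with P1 and 2.20 without, and on slide 5 it was 2.21 with P1 and 2.14 without.

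The probes with the largest differences between soybean meal + P2 and control were also described on their own. Of the 195 probes more than 2-fold higher in soybean meal + P2 than in control, 132 were lower with P1 than with soybean meal alone, with a median of −0.15 log2 units. Their mean level was −0.99, −0.94, −1.12, −1.83 and −0.89 in soybean meal + P1 fish 1 to 5, against −0.95, −0.997, −0.88, −1.14 and −0.84 in soybean meal fish 1 to 5. P1 fish 4 alone lay far below the others, and without it the median difference over the 195 probes was 0.02. Chosen against corn gluten + P2 in place of control, the list beyond 2-fold held 160 probes with a median of −0.05. Of the 279 probes more than 2-fold lower in soybean meal + P2 than in control, 148 (53.0%) were higher with P1, with a median of 0.05. The list chosen against corn gluten + P2 had the opposite direction, with a median of −0.26 over 459 probes, of which 127 (27.7%) were higher with P1. Over the 279 probes chosen against control, P1 fish 4 had the highest level among the fish of both diets. Its mean level was −2.08, against −2.72 to −3.24 in the other P1 fish and −2.40 to −3.06 in soybean meal fish. Without P1 fish 4 the median difference over the 279 probes was −0.12. Leaving out soybean meal fish 3 gave a median of −0.02 over the 279 probes, leaving out fish 4 of that diet gave 0.14, and leaving out P1 fish 2 gave 0.15. Against control, the 1222 higher probes had a median difference of 0.59 log2 units in soybean meal + P1 and 0.54 in soybean meal. The 1097 lower probes had −0.74 and −0.83 in the same order. The control fish had served to choose both lists.

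**Figure D5:**
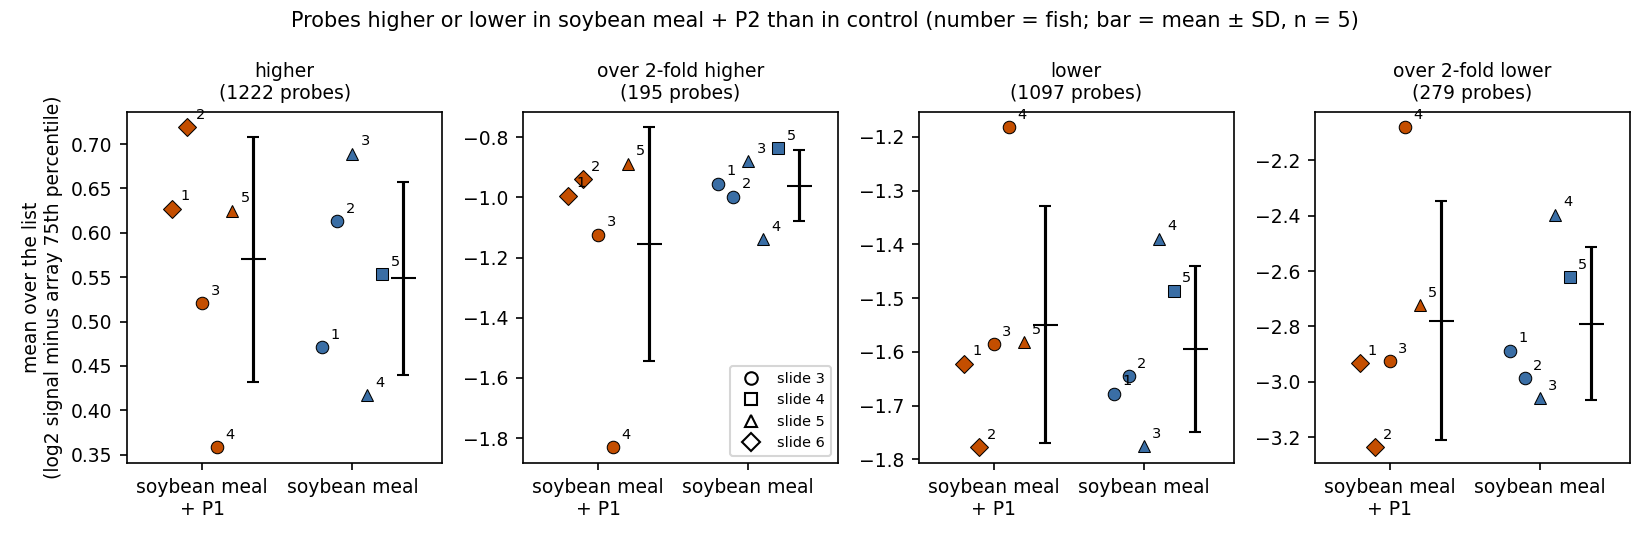
Mean level per fish (log2 signal minus the array's 75th percentile) over the probes higher or lower in soybean meal + P2 than in control, for all of them and for those beyond 2-fold, in soybean meal + P1 fish, left, and soybean meal fish, right, with the mean ± SD beside them. The diets overlap in each panel, and P1 fish 4 lies lowest in both higher lists and highest in both lower lists.

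Over all tested probes, fish fed P1 were about as variable as fish fed soybean meal alone. The median SD of a probe between fish was 0.26 log2 units in soybean meal + P1 and 0.28 in soybean meal, within the range of 0.26 to 0.28 over all 6 diets. The SD was higher with P1 at 5978 of 13575 probes (44%), with a median ratio of 0.92. It was more than 3 times higher with P1 at 491 probes and more than 3 times higher without P1 at 755. At the 195 and the 279 probes beyond 2-fold, the median SD was higher with P1, at 0.50 and 0.54 against 0.36 and 0.43. It was 0.29 against 0.26 at the 1097 lower probes, and lower with P1 at the 1222 higher probes, 0.18 against 0.21. The SDs with P1 include fish 4, whose mean over the 195 probes was −1.83 against −1.12 to −0.89 in the other P1 fish. SDs without this fish were not computed. Detection changed at few probes. Of all 14841, 12 were well above background in 4 or 5 P1 fish and in at most 1 soybean meal fish, and 25 the other way round.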

How the data were processed

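RNA of the distal intestine of 30 fish was hybridised to 1-colour Agilent arrays, 1 fish per array. The deposited scanner files hold the processed signal intensity of each spot, background-subtracted within the array by Feature Extraction 12.0.1.1, per the file headers. The method by which the authors scaled their value table is not given in the sources used here. The deposited table holds linear intensity values that sum to nearly the same total per array, 19861896 to 19874825 units. Its values were compared with the median spot signal minus the median background signal, times 1 factor per array (0.522 to 0.764). They matched within 1 unit at 98.4% to 99.5% of the cells that were not blank.

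Computed from these were log2 values of the processed signal minus each array's 75th percentile over non-control probes. Outlier spots were set to missing (598), and no spot was saturated (0). Kept were 13577 of 14841 probes, those with a signal well above background in 5 or more of the 30 fish, and 13576 could be tested. All 30 arrays were fitted with limma 3.58.1 in R 4.3.3, with 1 term per diet, eBayes without a trend and Benjamini-Hochberg adjustment within each comparison, at a threshold of 0.05. The fit was checked on simulated data. Single values per fish were compared by exact permutation over the 252 arrangements of 5 fish against 5. Array medians of the authors' table ran from 73 to 101 units, and 14191 of its cells were blank.

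The named probes are the 2 with the smallest p in each direction among those well above background in all 5 fish of at least 1 diet, whether or not they passed. The diets, lists and rules were chosen with earlier results of these data known. Lists of pathway and cell type marker genes had been drawn up but could not be used, since 0 identifiers matched the reference table of genes (assembly Ssal_v3.1). The lists of probes that differ between a soybean meal diet and control came from soybean meal + P2 minus control in the same fit. P2 is therefore part of that contrast, and the shared spread includes the P1 and soybean meal fish. Alternatives were normexp background correction, quantile and median scaling, other filters, a block for slide, for fish number or for presumed tank, the 10 arrays alone, a variance trend, the authors' table, and each fish left out in turn. The normexp setting used the median spot and background signals, since the mean spot signal is not in the files used here. Presumed tanks were runs of neighbouring fish numbers in the submitters' file names. The labels number the fish of each diet and do not say that the numbers pair fish across diets. Deviations of same-numbered fish correlated at −0.13 to 0.39, and 2 of the 5 pairs were over 0.1. Fish of different numbers correlated at −0.34 to 0.20. With so few pairs these values cannot settle whether the numbers pair fish.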

Additional observations from a re-analysis of the deposited data

Results flagged for a closer look

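Dixon's criterion was applied to 38 groups of 5 fish, of which chance flags about 1 in 20, and 3 stood out. The mean level over the 195 probes more than 2-fold higher in soybean meal + P2 than in control was −1.83 in soybean meal + P1 fish 4, far below the other 4 fish of that diet. At Ssa#DW181704, soybean meal + P2 fish 3 had a level of −3.02, below the other fish of its diet. At the same probe, corn gluten fish 3 had a level of −3.17, below the other fish of its diet.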

How the results depend on the processing

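The count of 3 called probes was 2 with normexp background correction (both lower with P1), 4 with slide as a block, and 3 with quantile normalization, median scaling, no filter, a filter on all 10 arrays, a variance trend or presumed tank as a random block. With fish number as a replicate block it was 3, and the block changed the call of no named probe. It was 0 in the fit to the 10 arrays alone (1064 probes at an unadjusted p below 0.05) and 1 in the authors' value table. With each fish left out in turn it ranged from 0 to 27, lowest without soybean meal fish 5 (1145 at an unadjusted p below 0.05) and highest without soybean meal fish 4. It was 18 without soybean meal fish 2, 6 without soybean meal fish 3 and 5 without soybean meal + P1 fish 5. The cause was not tested. Over 21 alternatives Ssa#DW181704 and Ssa#S35523722 passed in 17 each, Ssa#S31999895 in 18 and Ssa#GRASP221220567 in 2, and each of the 4 kept its direction in all 21. Over all tested probes the median difference was 0.03 in the main fit. The median over the probes higher in soybean meal + P2 than in control was 0.04 to 0.12 with fish left out. It was 0.02 in the authors' table. That over the lower probes was −0.01 without soybean meal + P1 fish 4, −0.06 with normexp, −0.01 in the authors' table and −0.05 when the list was chosen against corn gluten + P2, an alternative added after seeing the data. The counts of probes beyond 2-fold under other settings were also added after seeing the data. Precision is limited by 5 fish per diet, and for dim probes by signal near background.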
